A study of Caenorhabditis elegans with 4 samples.

Results

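The piRNAs described here are 325 of the 15913 entries in a count table of piRNAs that came down with PRG-1, a Piwi Argonaute, from adult hermaphrodites of Caenorhabditis elegans. Each had 30 to 99 sense reads in both Wild Type libraries. Each also had less than 0.3 times its Wild Type level in the libraries of the prg-1(∆PAZ-domain) mutant, called ∆PAZ here. Levels are sense reads per 1000000 reads that mapped to the genome (RPM), and for the choice of members the reads of both libraries of a genotype were pooled. The reads of the Wild Type and ∆PAZ libraries thus chose the members, and the difference between the genotypes is given as a description. Where a fit over the whole table is cited for it, the calls are printed beside those of all piRNAs tested and support nothing about the members. Of the 333 piRNAs in that window of reads, 97.6% met the limit on the ratio, so the members are nearly the whole class of piRNAs at this abundance. The limit was also met by 94.2% of the 1355 piRNAs of any abundance that had enough reads for the fit described further on.

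PRG-1 is the Argonaute that carries piRNAs in the germline of this nematode. A piRNA guides PRG-1 to transcripts that pair with it, and targeting is followed by the production of secondary small RNAs that silence the transcript. The PAZ domain of an Argonaute is the fold that holds the 3' end of its guide RNA, while the 5' end sits in a pocket of the MID domain. In worms, as in other animals, the 3' end of a mature piRNA is trimmed and methylated. The entries of the table carry identifiers only, so no gene, target or position is given for any of them.

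The study compared 2 ∆PAZ and 2 Wild Type libraries. Synchronized animals were grown at 25 °C to adulthood, whole worms were lysed, and V5-tagged PRG-1, either lacking the PAZ domain or of Wild Type form, was precipitated. The tag was shared by both groups, and neither input RNA nor an untagged precipitate was analysed here. The precipitates came from whole animals, so less PRG-1, fewer germ cells and fewer piRNAs per PRG-1 protein cannot be told apart. The labels do not say whether the replicates came from separate cultures, and the spread between them may be technical.

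Depth was 7819170 and 14430880 genome-mapped reads in ∆PAZ replicates 1 and 2, against 6461936 and 8416474 in Wild Type replicates 1 and 2. A single read was therefore worth 0.128 and 0.0693 RPM in the ∆PAZ libraries and 0.155 and 0.119 RPM in the Wild Type libraries. The sense reads of a bin of the genome table with ribosomal RNA genes were 29.6% and 61.2% of the genome-mapped reads in ∆PAZ replicates 1 and 2. In Wild Type replicates 1 and 2 they were 63.2% and 67.1%. ∆PAZ replicate 1 stood apart from the other libraries in this share. Where the bin is said to be left out below, its sense reads were left out. Values that leave out these reads, or use each ∆PAZ library alone, stand beside the results they bear on.

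Summed over the 325 piRNAs, the ∆PAZ libraries held far fewer reads than the Wild Type libraries. There were 2796 and 1098 reads in ∆PAZ replicates 1 and 2, against 18382 and 17601 in Wild Type replicates 1 and 2. Scaled to genome-mapped reads, these sums were 358 and 76.1 RPM in ∆PAZ, against 2845 and 2091 RPM in Wild Type. Both ∆PAZ values lay below both Wild Type values, with 5.85-fold between the closest libraries of unlike genotype and 37.4-fold between the farthest. The means were 217 ± 199 RPM in ∆PAZ and 2468 ± 533 RPM in Wild Type (SD, n = 2 each). A 4.70-fold difference separated the ∆PAZ replicates, and a 1.36-fold difference separated the Wild Type replicates. When the ribosomal RNA bin was left out of the denominator, a scaling chosen with earlier results known, the sums were 508 and 196 per 1000000 such reads in ∆PAZ replicates 1 and 2, against 7726 and 6356 in Wild Type replicates 1 and 2. On that denominator the ∆PAZ replicates were 2.59-fold apart.

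The share of these piRNAs in the piRNA pool behaved differently from their level. They held 13.8% of the piRNA reads in ∆PAZ replicate 1 (95% Clopper-Pearson interval 13.3 to 14.2) and 6.38% in ∆PAZ replicate 2 (6.02 to 6.76), against 12.9% (12.7 to 13.1) in Wild Type replicate 1 and 12.6% (12.4 to 12.7) in Wild Type replicate 2. ∆PAZ replicate 2 was thus the only library in which the share was low. In that library a single piRNA outside the set, cel-piR-8767, took 51.0% of all piRNA reads, while it took 7.05% in ∆PAZ replicate 1 and 3.59% and 2.49% in Wild Type replicates 1 and 2. Without the reads of cel-piR-8767, the share of the 325 piRNAs was 14.8% and 13.0% in ∆PAZ replicates 1 and 2, against 13.4% and 12.9% in Wild Type replicates 1 and 2. The means were then 13.9% ± 1.26 in ∆PAZ and 13.1% ± 0.345 in Wild Type (SD, n = 2 each), a difference smaller than the SD of the ∆PAZ replicates. These intervals hold counting error alone. PCR copies of a molecule, where counted as separate reads, would make them too narrow.

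**Figure D1:**
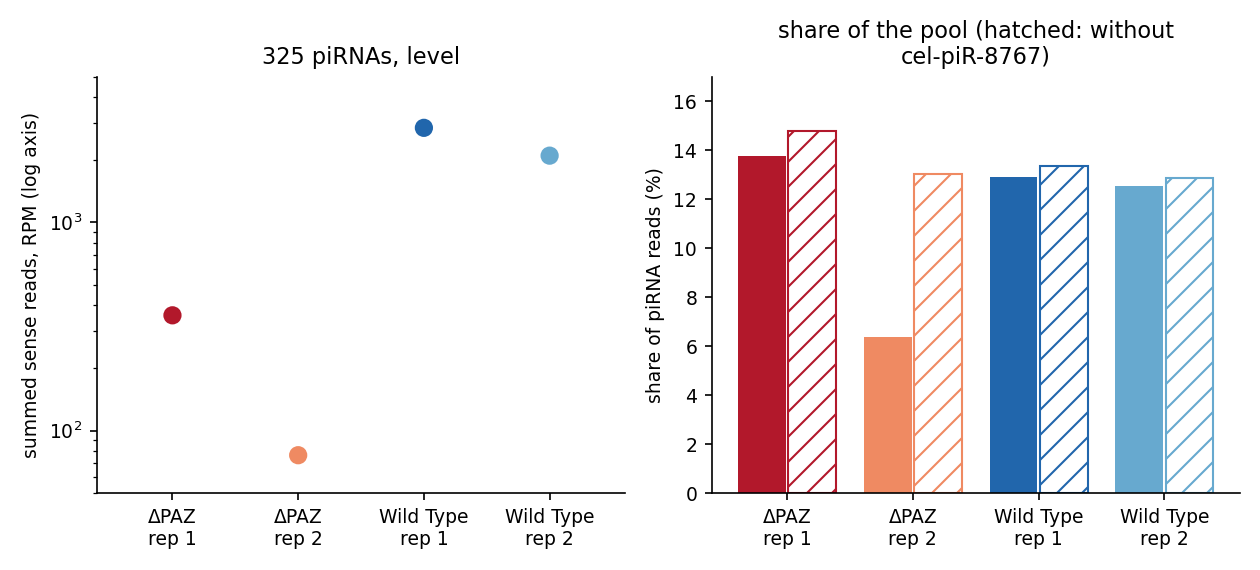
Left, summed sense level of the 325 piRNAs in each library, in RPM on a log axis, with 1 point per library. Right, their share of the piRNA reads of each library in percent, with filled bars for all piRNA reads and hatched bars after leaving out cel-piR-8767. The level was 358 and 76.1 RPM in the ∆PAZ libraries, below 2845 and 2091 RPM in the Wild Type libraries, and the hatched shares lie between 12.9% and 14.8%.

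The fraction kept by single piRNAs covered the whole range that the rule allows. The median member had 5.81% of its Wild Type level in ∆PAZ, with quartiles of 2.57% and 10.7%. Under 1% was kept by 36 members, 1% to under 2% by 26, 2% to under 5% by 85, and 5% to under 10% by 88. Another 74 members kept 10% to under 20%, and 16 kept 20% or more. Counted per genome-mapped read, 325 of 325 members had both ∆PAZ libraries below both Wild Type libraries, against 94.3% of the 1355 piRNAs of that fit. The rule used this contrast, so nothing is read from that count. The median log2 ratio was -4.10 over the members and -3.95 over those 1355 piRNAs, in both cases with pooled ∆PAZ counts under 3 reads raised to 3. Over the 1355 piRNAs, pooled Wild Type counts under 3 reads were raised to 3 as well.

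**Figure D2:**
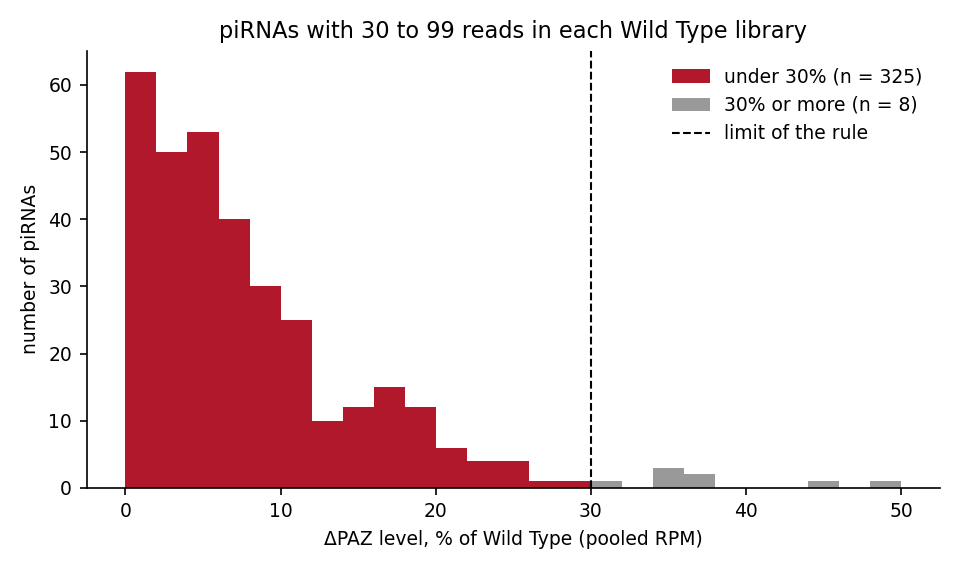
Number of piRNAs (vertical axis) by their pooled ∆PAZ level in percent of the Wild Type level (horizontal axis, steps of 2 percentage points), for the 333 piRNAs with 30 to 99 reads in each Wild Type library. The 325 members lie below the dashed limit at 30%, with most of them under 10%, and the 8 piRNAs above it are in grey.

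The most abundant members in Wild Type kept unequal fractions. The piRNA cel-piR-7499 had 1 and 1 reads in ∆PAZ replicates 1 and 2, against 95 and 95 in Wild Type replicates 1 and 2. Its level was 0.0986 ± 0.0414 RPM in ∆PAZ and 13.0 ± 2.41 RPM in Wild Type (SD, n = 2 each), and 0.704% of the pooled level was kept (95% counting interval 0.0846 to 2.58). Both ∆PAZ libraries were thus at the level of a single read. For cel-piR-1940 there were 23 and 7 reads in ∆PAZ, against 99 and 89 in Wild Type, and 10.7% was kept (7.0 to 15.7). The counting intervals of these neighbours in Wild Type abundance do not overlap. They hold counting error alone and rest on the reads that the rule used, so nothing is concluded from this.

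The next members in Wild Type abundance fell between them. The reads of cel-piR-1721 were 14 and 5 in ∆PAZ, against 92 and 95 in Wild Type, which left 6.79% (4.0 to 10.9). The piRNA cel-piR-4959 had 7 and 8 reads in ∆PAZ and 90 and 93 in Wild Type, with 5.48% kept (3.01 to 9.28). It was among the members with similar counts in both ∆PAZ libraries. For cel-piR-2258 the counts were 5 and 1 in ∆PAZ and 86 and 95 in Wild Type, with 2.22% kept (0.803 to 4.92).

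No read was found in either ∆PAZ library for 14 of the members, which had 60 to 160 pooled reads in Wild Type. With a floor of 3 reads over both ∆PAZ libraries, their level was at least 29.9-fold to at least 79.8-fold lower in ∆PAZ. The highest bound belonged to cel-piR-2028, with 0 and 0 reads in ∆PAZ, against 75 and 85 in Wild Type. It was followed by cel-piR-11155, at 0 and 0 reads in ∆PAZ and 87 and 52 in Wild Type, which was at least 69.3-fold lower. The Wild Type replicates of this piRNA were less alike, at 13.5 and 6.18 RPM.

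Other members without a ∆PAZ read were cel-piR-1692, cel-piR-15560 and cel-piR-9084. In Wild Type, cel-piR-1692 had 57 and 78 reads and cel-piR-9084 had 47 and 75, so these were at least 67.3-fold and 60.8-fold lower in ∆PAZ. The Wild Type reads of cel-piR-15560 were 34 and 89, and its bound was 61.3-fold. At the depth of the ∆PAZ libraries, 3 reads correspond to 0.384 and 0.208 RPM in replicates 1 and 2, so a count of 0 allows a level up to these values in the library that gave it.

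At the other end, members just inside the ratio limit were set beside the piRNAs just outside it. The member with the largest fraction was cel-piR-4882, with 45 and 10 reads in ∆PAZ, against 73 and 56 in Wild Type, and 28.5% kept (20.4 to 39.4). For cel-piR-11580 the counts were 28 and 4 in ∆PAZ and 39 and 39 in Wild Type, with 27.4% kept. The counts of cel-piR-7144 were 31 and 12 in ∆PAZ and 78 and 34 in Wild Type, with 25.7% kept. In ∆PAZ replicate 1, cel-piR-7144 reached 3.96 RPM, just under the 4.04 RPM of Wild Type replicate 2. The groups of all 3 did not overlap, and the gap that separated them lay between ∆PAZ replicate 1 and Wild Type replicate 2. Fractions of 24.7% and 24.3% were kept by cel-piR-6735 and cel-piR-5688. The reads of cel-piR-6735 were 24 and 10 in ∆PAZ and 50 and 42 in Wild Type, and those of cel-piR-5688 were 20 and 8 in ∆PAZ and 43 and 34 in Wild Type.

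The window held 8 piRNAs at or above the limit, which kept 31.6% to 48.4% of their Wild Type level. The nearest was cel-piR-10776, with 41 and 11 reads in ∆PAZ, against 78 and 32 in Wild Type (31.6% kept, 22.3 to 44.4). For cel-piR-5262 the counts were 45 and 21 in ∆PAZ and 66 and 63 in Wild Type (34.2% kept). For cel-piR-1318 they were 33 and 10 in ∆PAZ and 32 and 50 in Wild Type (35.1%). The counting intervals of the piRNAs nearest to the limit on both sides include 30%, so counting error alone does not place them on one side of it.

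Further from the limit were cel-piR-2918 and cel-piR-8861. The piRNA cel-piR-2918 had 52 and 14 reads in ∆PAZ and 38 and 87 in Wild Type (35.3%), and cel-piR-8861 had 74 and 21 in ∆PAZ and 97 and 78 in Wild Type (36.3%). At the edges of the read window, the members were held to the ratio limit and the piRNAs outside it were not. The 36 members whose lower Wild Type count was 30 or 31 kept a median of 5.41%, and the 34 piRNAs whose lower count was 28 or 29 kept 4.98%. At the upper edge, the 36 members with a higher Wild Type count of 90 to 99 kept a median of 4.32%, and the 23 piRNAs whose higher count exceeded the window by at most 10 reads kept 5.37%.

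**Figure D3:**
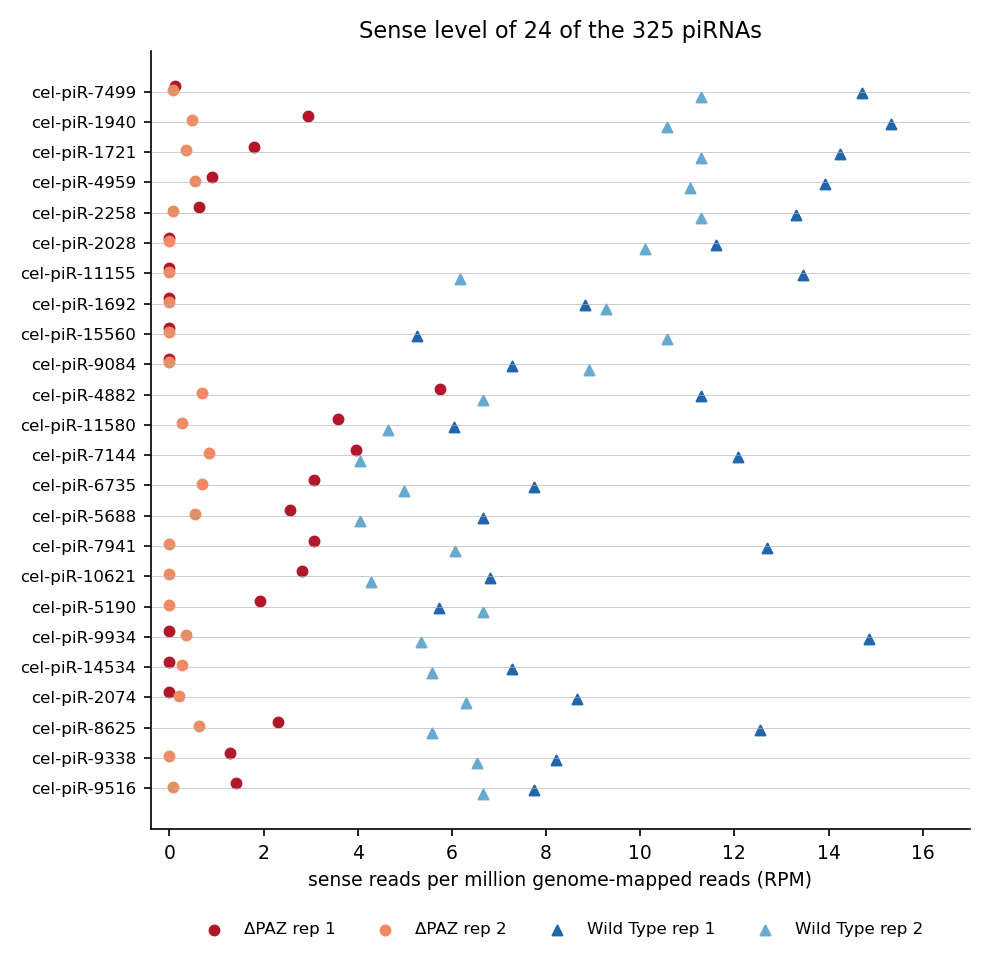
Sense level in RPM (horizontal axis) of 24 members chosen by rank (vertical axis, cel-piR-7016 not among them), with circles for the ∆PAZ libraries and triangles for the Wild Type libraries, 1 symbol per library. In each row both circles lie left of both triangles, and for cel-piR-7144 the gap is smallest, between 3.96 RPM in ∆PAZ replicate 1 and 4.04 RPM in Wild Type replicate 2.

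The ∆PAZ replicates gave these piRNAs unequal levels. The level was higher in ∆PAZ replicate 1 than in ∆PAZ replicate 2 for 272 members and lower for 39, and 14 were at 0 in both. Zero reads were counted for 37 members in ∆PAZ replicate 1 and for 67 in ∆PAZ replicate 2, although the second library was the deeper one. Between these libraries 235 members, or 72.3%, had reads in both. The median member had 7 reads in ∆PAZ replicate 1 and 2 in ∆PAZ replicate 2, against 54 and 51 in Wild Type replicates 1 and 2. With ∆PAZ replicate 1 alone, the median fraction kept was 11.4%, and 48 members were at 30% or more of the pooled Wild Type level. With ∆PAZ replicate 2 alone it was 2.19%, and 0 members reached 30%. Membership near the limit thus rested on the pooling of both libraries.

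Some members were read almost only in one ∆PAZ library. The reads of cel-piR-7941 were 24 and 0 in ∆PAZ replicates 1 and 2, against 82 and 51 in Wild Type. Those of cel-piR-10621 were 22 and 0 in ∆PAZ and 44 and 36 in Wild Type, and those of cel-piR-5190 were 15 and 0 in ∆PAZ and 37 and 56 in Wild Type. For all 3, a ∆PAZ level of 1.92 to 3.07 RPM in replicate 1 stood beside no read in replicate 2. In the opposite direction the counts were smaller. The piRNA cel-piR-9934 had 0 and 5 reads in ∆PAZ and 96 and 45 in Wild Type, cel-piR-14534 had 0 and 4 in ∆PAZ and 47 and 47 in Wild Type, and cel-piR-2074 had 0 and 3 in ∆PAZ and 56 and 53 in Wild Type.

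**Figure D4:**
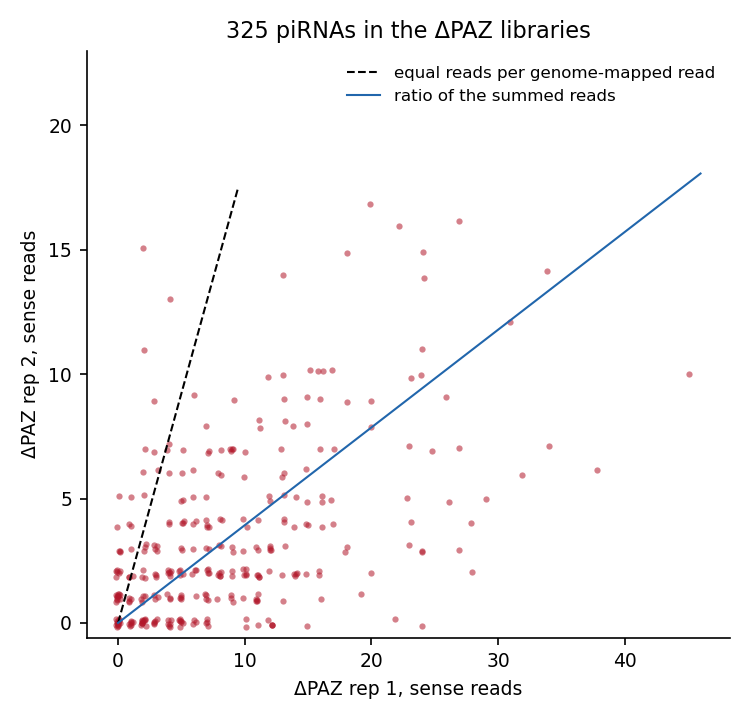
Sense reads of each of the 325 piRNAs in ∆PAZ replicate 1 (horizontal axis) and ∆PAZ replicate 2 (vertical axis), with a small random shift so that equal counts can be seen. Most points lie below the dashed line of equal reads per genome-mapped read, with 272 members higher in replicate 1, and they scatter around the solid line, which is the ratio of the summed reads, 1098 to 2796.

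The spread of the members around a common fraction is described next. The rule used the same reads, so these values support nothing further. Around a single ratio of ∆PAZ to Wild Type reads, the squared deviations of the pooled counts, divided by those that counting error gives, averaged 7.07 over the 325 piRNAs, where counting error alone gives about 1. The same measure was 2.16 between the ∆PAZ replicates, over the 311 members with a ∆PAZ read, and 3.59 between the Wild Type replicates, whose counts the window limits. For ∆PAZ replicates 1 and 2 taken singly against the pooled Wild Type reads it was 6.20 and 3.41. The measure rises with read depth, and the value for ∆PAZ replicate 2 was below that between the Wild Type replicates. Reads of the ∆PAZ replicates were correlated across the members, with Pearson's r of 0.51 and Spearman's rho of 0.50. Reads of the Wild Type replicates had an r of 0.36 and a rho of 0.37 over the narrow window. These are descriptions across piRNAs that share the same 4 libraries, and piRNAs are not independent replicates.

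The number of members that held most of the reads was counted in each genotype. A total of 71 members held 50% of the pooled ∆PAZ reads of the set, and 127 members held 50% of its Wild Type reads. The 10 members with the most reads took 11.0% of the set's reads in ∆PAZ and 5.01% in Wild Type. The window bounds the Wild Type values and the ∆PAZ counts are lower, so no comparison is made between them.

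The fraction kept was also set against Wild Type abundance inside the window. The 125 members with 60 to 99 pooled Wild Type reads kept a median of 5.90%, the 140 with 100 to under 140 reads kept 6.43%, and the 60 with 140 or more kept 4.49%. Across the 325 members the Wild Type level and the fraction kept had a Pearson's r of -0.15 and a Spearman's rho of -0.13. The Wild Type reads enter both measures, and these values are descriptions over piRNAs of the same libraries.

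Outside the window, the 426 piRNAs with 10 to 29 reads in each Wild Type library kept a median of 5.92%, close to the 6.03% of the 333 piRNAs with 30 to 99 reads. The 217 piRNAs with 100 or more reads in each Wild Type library kept a median of 2.95%. The ratio limit of the rule was met by 94.1% of the rarer class, by 97.6% of the window and by 98.6% of the more abundant class. These medians were not tested against each other, since the classes share the same libraries. The step between the ∆PAZ replicates was similar in each class. The summed level was higher in ∆PAZ replicate 1 than in replicate 2 by 4.24-fold for 10 to 29 reads, by 4.70-fold for the 325 members, and by 4.05-fold for 100 or more reads without cel-piR-8767 (1.30-fold with it).

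Relative to the other piRNAs, members were found on both sides of the pool. All piRNA reads together were at 8.88% of Wild Type in ∆PAZ with reads pooled by genotype. Of the members, 100 kept more than this and 225 kept less. Without cel-piR-8767 the pool kept 6.67%, and 145 members kept more and 180 less. In a fit scaled within the piRNA pool (edgeR quasi-likelihood test with TMM factors, adjusted p under 0.05), 35 members, or 10.8%, were lower, and 3, or 0.923%, were higher. Of all 1172 piRNAs in that fit, 15.9% were lower and 8.19% were higher. The read window and the ratio limit both used the reads of this contrast, so nothing is read from these shares. The ratio limit alone removed 8 of the 333 piRNAs in the window.

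The 3 members that were higher within the pool, named here after their values were seen, were cel-piR-4882, cel-piR-7144 and cel-piR-7016. Their log2 changes within the pool were 1.68 ± 0.60, 1.63 ± 0.62 and 1.60 ± 0.62 (SE), with edgeR adjusted p of 0.0271, 0.0406 and 0.0425. The rule used the same reads and the 3 were picked from the calls, so these p-values support nothing about them. The reads of cel-piR-7016 were 27 and 16 in ∆PAZ, against 85 and 36 in Wild Type. Per genome-mapped read, all 3 kept under 30% of their Wild Type level.

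Antisense reads were not used to choose the members and were rare among them. Only 4 members, or 1.23%, had an antisense read, against 2.40% of the 6251 piRNAs with a sense read. Summed over the members there were 1 and 3 antisense reads in ∆PAZ replicates 1 and 2, against 2 and 12 in Wild Type replicates 1 and 2. The mean antisense level was 0.168 ± 0.0566 RPM in ∆PAZ and 0.868 ± 0.789 RPM in Wild Type (SD, n = 2 each). A two-sided exact permutation test on the log2 sums gave p = 0.33, which is the smallest value possible with 2 libraries per group, so 0.05 was out of reach. The difference rested on cel-piR-8625, whose antisense reads were 0 and 1 in ∆PAZ and 1 and 12 in Wild Type. Without it the sums were 1 and 2 in ∆PAZ, against 1 and 0 in Wild Type. The log2 difference then turned direction, but only with the sum of 0 replaced by 0.5 reads, so its sign rests on that choice.

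Among the members with antisense reads, cel-piR-8625 had 18 and 9 sense reads in ∆PAZ and 81 and 47 in Wild Type, with 14.1% kept. The piRNA cel-piR-9338 had 0 and 2 antisense reads in ∆PAZ and none in Wild Type, beside 10 and 0 sense reads in ∆PAZ and 53 and 55 in Wild Type. In ∆PAZ replicate 2 it thus had antisense reads and no sense read. For cel-piR-9516 there were 1 and 0 antisense reads in ∆PAZ and none in Wild Type, and its sense reads were 11 and 1 in ∆PAZ, against 50 and 56 in Wild Type.

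The size of the replicate spread against the single decreases was read from a fit over the whole table. When library sizes were genome-mapped reads, 233 of the 325 members, or 71.7%, were lower in ∆PAZ at an adjusted p under 0.05 by edgeR's quasi-likelihood test, 0 were higher, and 92 did not pass the threshold. Of the 1355 piRNAs tested, 76.9% were lower. The members were chosen by this contrast, and all 325 entered the fit through their Wild Type reads, so the count supports nothing about them. With an unadjusted p under 0.05, 0 members were higher. By DESeq2, 266 members, or 81.8%, were lower and 0 higher, beside 1043 lower and 0 higher of the 1355 piRNAs tested. Over the members, the median edgeR log2 fold change was -3.87 with a median SE of 1.55. The largest edgeR adjusted p belonged to cel-piR-11580, at 0.308 with a log2 fold change of -1.49 ± 1.41 (SE). The count of lower members was 0 without Wild Type replicate 1 and 0 without Wild Type replicate 2, where a lone Wild Type library was assumed to vary like the ∆PAZ libraries. When the ribosomal RNA bin was left out of the library sizes, all 325 members were lower, and 96.9% of the 1619 piRNAs then tested were lower.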

How the data were processed

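Small RNAs co-precipitated with V5-tagged PRG-1 were sequenced, 2 libraries per genotype. The authors deposited raw counts of sense and antisense reads for 15913 entries of piRNAdb (version 1.7.6) and raw counts per genome bin and strand (ce11), per the file headers, with read totals per library. Which aligner and read lengths were used, and how multiply matching reads were counted, is not given in the sources used here, so entries that share sequence are uncertain. No 2 members had identical counts in all 8 columns, while 76 of 1630 piRNAs with over 20 sense reads shared theirs with another. Sequences and positions of the entries were not used here.

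Groups came from the sample titles. The members, lists and alternatives were chosen with earlier results of these data known. Named piRNAs were the 5 members highest in Wild Type, the 5 with the lowest and the 5 with the highest ratio, the 5 piRNAs next outside the limit, the 3 most unequal between the ∆PAZ replicates in each direction (0.5 reads added), and the 3 with the most antisense reads. All piRNAs were tested with edgeR 4.0.16 in R 4.3.3 (filterByExpr, minimum count 10 and total 15, Benjamini-Hochberg adjustment), and with DESeq2 1.42.0 as an alternative. The edgeR fit was run on simulated counts with a common spread for all piRNAs and as many increases as decreases. Most piRNAs were lower in these data, so the simulation does not bear on the calls. An SE is the log2 fold change divided by the square root of F and is approximate. Counting intervals are exact (Clopper-Pearson, 95%) on reads pooled by genotype. A count of 0 allows up to 3 reads. The other steps ran in Python 3.11.15 (SciPy 1.17.1, pandas 2.3.3, NumPy 2.4.6).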

Additional observations from a re-analysis of the deposited data

How the results depend on the processing

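With 2 libraries per group and few ∆PAZ reads, single fractions are imprecise. Counts moved with denominator, window, filter and library left out. The number of members was 331 with reads outside the ribosomal RNA bin, which included all 325, but 84 with piRNA reads and 62 with piRNA reads without cel-piR-8767 (the last chosen after the results were seen). It was 622 with 20 to under 150 reads in each Wild Type library, and 277 to 506 when each library was left out in turn. The ratio limits of 0.2 and 0.4 gave 309 and 331, and the mean of library RPM gave 322. The summed log2 ratio was -3.79, ranged from -4.99 to -2.76 when each library was left out, was -0.29 with piRNA reads and 0.12, the opposite direction, without cel-piR-8767. The median log2 ratio of -4.10 ranged from -4.80 to -3.13 with a library left out, and was -0.61 and -0.20 on these denominators. A denominator made of piRNA reads is itself lower in ∆PAZ, so these are changes within the pool.

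The 233 members lower by edgeR were 35 within the pool (TMM), beside 186 of all 1172 piRNAs tested. Without a filter 150 members were lower, beside 891 of all 6251. With a minimum count of 50, 123 of the 141 members left were lower, beside 402 of all 450. The count was 0 to 325 when each library was left out. With the replicate block it was 247. The labels do not say that the replicate numbers pair the libraries. The correlation of same-numbered deviations was 0.034 over the tested piRNAs, a value that leaves out any shift that all piRNAs share. In Wild Type, 263 members were higher in replicate 1 than in replicate 2 and 62 were lower. In ∆PAZ, 272 were higher, 39 were lower and 14 were at 0 in both. Pairing cannot be told from these values. The antisense log2 difference of -2.03 ranged from -3.13 to -0.92 with a library left out. It was 0.47 without cel-piR-8625, where a sum of 0 was replaced by 0.5 reads.

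The 29 named piRNAs were chosen partly for ratios near the limit, so their directions do not stand for the members. On the piRNA read denominator, 100 of the 325 members were higher in ∆PAZ. Of the 29 named piRNAs, 15 were higher on it. Their log2 ratios were 0.27 for cel-piR-1940, 1.68 for cel-piR-4882, 1.63 for cel-piR-11580, 1.53 for cel-piR-7144, 1.48 for cel-piR-6735, 1.45 for cel-piR-5688, 0.44 for cel-piR-7941, 1.05 for cel-piR-10621, 0.28 for cel-piR-5190 and 0.67 for cel-piR-8625. Outside the limit they were 1.83 for cel-piR-10776, 1.95 for cel-piR-5262, 1.98 for cel-piR-1318, 1.99 for cel-piR-2918 and 2.03 for cel-piR-8861. Leaving out the ribosomal RNA bin, or each library in turn, turned no direction among the 29. The other alternatives were not tabulated piRNA by piRNA. In the edgeR fit within the pool, the named members cel-piR-4882 and cel-piR-7144 passed the threshold as higher. Those that passed it as lower were cel-piR-2028, cel-piR-11155, cel-piR-1692, cel-piR-15560, cel-piR-9084 and cel-piR-7499. The rule used the same reads, so these calls support nothing about them.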
